A study of Homo sapiens with 6 samples.

Results

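Cyclins, cyclin-dependent kinases (CDKs), CDK inhibitors and the retinoblastoma family of pocket proteins were examined in HT29, an established line of human colorectal adenocarcinoma cells. A gene belonged to the set if its symbol was that of a cyclin of the types A to L, T or Y, a numbered CDK, a CDK inhibitor of the CDKN1, CDKN2 or CDKN3 type, RB1, RBL1 or RBL2, and if it had probe sets annotated to that symbol alone. The rule found 51 of the 19775 genes measured, read by 140 of 41091 probe sets with 1 symbol. It used no expression value, but the set was chosen with earlier results of these data known. On this array the probe sets of CDK3 also carry the symbol TEN1-CDK3, and CDK11A and CDK11B share theirs with each other, so these genes were not among the 51. CDKN2C was not among them either.

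The treated cultures received 500 µg of a polyphenolic cocoa extract (volume not given) and the controls, titled untreated, received saline according to the protocol. All cultures were HT29 cells plated at 300000 cells in F12 medium with serum, and RNA was taken 24 h after the addition. There were 3 cultures with cocoa extract and 3 controls, each read on its own Affymetrix U133 Plus 2.0 array. HT29 is a single tumour line, and no label says that cultures of a group came from separate passages or days. The p-values therefore cover the spread among these 6 plates, which may be technical.

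Cyclins are the activating subunits of CDKs. D cyclins with CDK4 or CDK6 and E cyclins with CDK2 phosphorylate the pocket proteins RB1, RBL1 and RBL2 in G1, which frees E2F transcription factors and opens the way into S phase. Cyclin A works with CDK2 and CDK1 in S phase and G2, and cyclin B with CDK1 in mitosis. Inhibitors of the INK4 type (CDKN2A to CDKN2D) bind CDK4 and CDK6, and those of the CIP/KIP type (CDKN1A to CDKN1C) bind cyclin-CDK complexes. A second branch of the families, with cyclins C, H, K, L and T, acts mainly on RNA polymerase II.

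The deposited log2 values had been centred, each probe set to a median of 0 across the 6 arrays. A value of 0 therefore means the middle of the 6 arrays, and levels of different genes cannot be compared. For the same reason the labelled cell type could not be checked by the level of its markers. Of 10 colon epithelium markers 0 passed the limma test between cocoa and control cultures, with 2 at an unadjusted p below 0.05, a share that is 27.1% over all genes. Of 5 fibroblast and 3 leucocyte markers measured 0 passed as well, with 0 at an unadjusted p below 0.05.

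After cocoa extract 14 of the 51 genes changed, 5 upward and 9 downward (limma, Benjamini-Hochberg adjusted p under 0.05 over all genes). That is 27.5% of the set, against 13.5% of all genes. The genes that fell make up 17.6% of the set, against 6.12% of all genes, and those that rose 9.80%, against 7.36% of all genes. As earlier results were known when the set was chosen, these shares describe the set and do not test it. The median log2 difference, cocoa minus control, was −0.073 over the set and −0.012 over all genes. In bulk RNA, fewer cells in a phase of the cycle and less RNA of a gene per cell cannot be told apart. The sizes ran from 0.31 to 0.85 on the log2 scale among the 5 genes that rose and from 0.23 to 0.60 among the 9 that fell, and 3 of the 14 (CCNG2, CCNF and CDK6) reached 1.5-fold. Values of cocoa and control arrays did not overlap for any of the 14, nor in 9 of the 37 genes that did not pass. Together these 23 are 45.1% of the set, against 32.5% of all genes. The genes that fell were CCNA2, CCNE2, CCNF, CDK2, CDK4, CDK6, CDK8, CDK10 and CDKN2A, and those that rose were CCNG2, CDK5, CDK18, CDKN1A and RBL2.

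**Figure D1:**
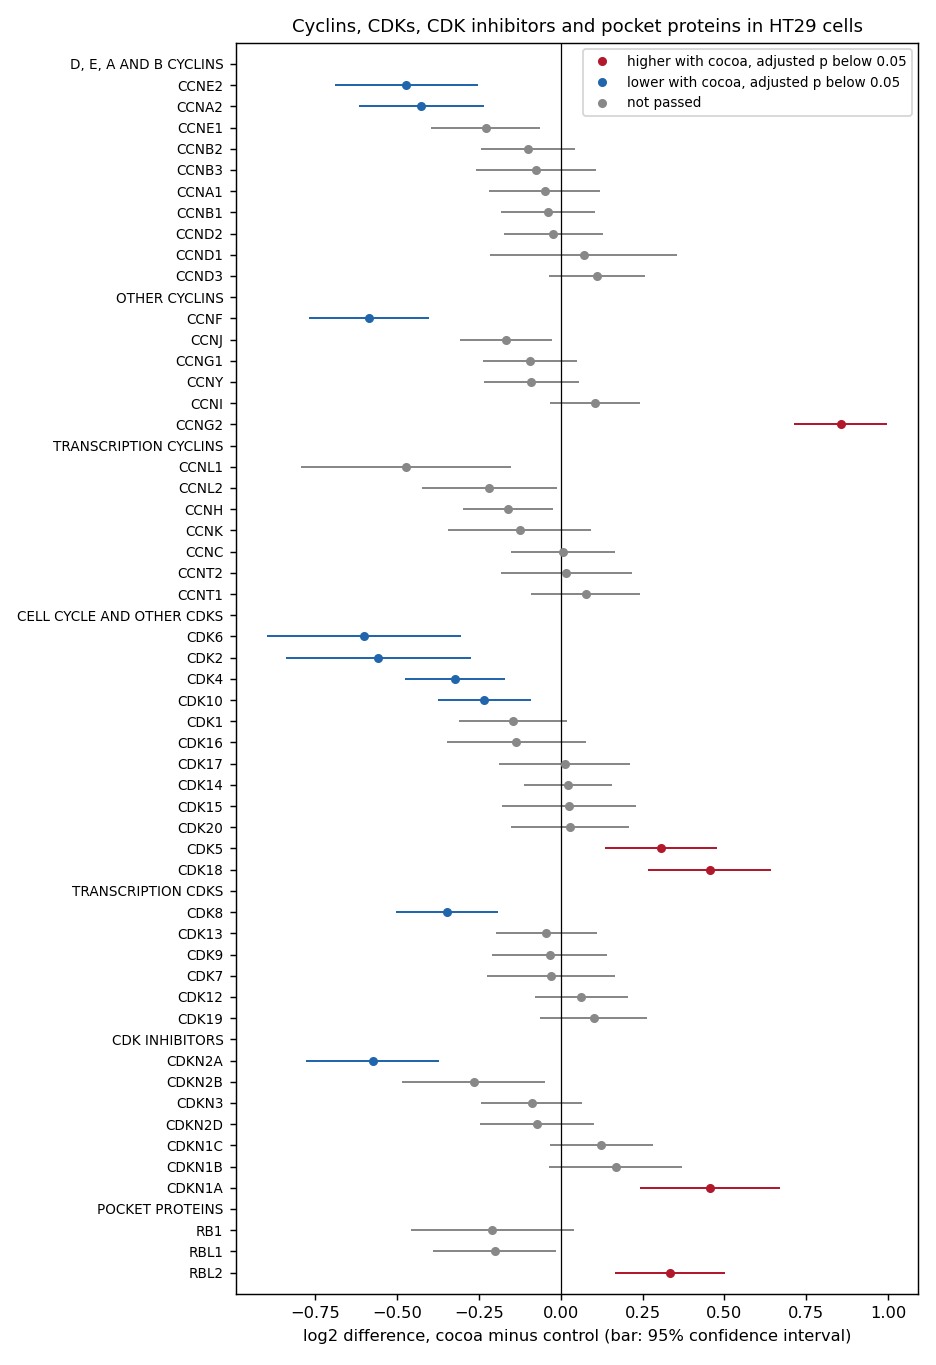
Log2 difference, cocoa minus control, of the 51 genes, grouped by role on the vertical axis. Points are mean differences over 3 arrays per group, bars are 95% confidence intervals, and colours mark genes past the threshold: CCNG2 lies farthest to the right at 0.85 and CDK6 farthest to the left at −0.60.

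Among the 10 D, E, A and B cyclins 2 fell, 0 rose and 8 did not pass in limma (20% changed, against 13.5% of all genes). Of these 10, 3 had an unadjusted p below 0.05, against 27.1% of all genes. CCNE2, an E cyclin that activates CDK2 at the start of S phase, had centred log2 values of −0.16, −0.54 and −0.22 on the cocoa arrays 1, 2 and 3, and of 0.18, 0.16 and 0.16 on the control arrays. All cocoa values lay below all control values, with cocoa array 2 the lowest. CCNE2 fell by 0.47 on the log2 scale (SE 0.097, adjusted p = 0.0126, n = 3 arrays per group). Without control array 2 its adjusted p was 0.04996, just under the threshold. Its 2 probe sets had log2 differences of −0.68, which was called, and −0.27, which was not (limma over probe sets, adjusted p = 0.0643).

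CCNA2, the A cyclin of dividing body cells, had −0.096, −0.30 and −0.40 on the cocoa arrays and 0.17, 0.19 and 0.11 on the controls. The groups did not overlap, and cocoa array 1 lay nearest to the controls. It fell by 0.43 (SE 0.085, adjusted p = 0.0110), and without control array 2 the adjusted p was 0.0532. CCNE1, the other E cyclin, had −0.12, −0.079 and −0.076 with cocoa and 0.078, 0.065 and 0.27 in controls. Its arrays did not overlap either, but its log2 difference of −0.23 (SE 0.074) did not pass (adjusted p = 0.0737).

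The cyclins of mitosis and of early G1 did not pass. CCNB1, the main partner of CDK1 in mitosis, had −0.0068, 0.0034 and −0.079 on the cocoa arrays and 0.025, −0.040 and 0.048 on the controls, which overlap. Its log2 difference was −0.038 with a 95% confidence interval from −0.18 to 0.10. CCNB2, a second mitotic cyclin, had a log2 difference of −0.10 (interval −0.25 to 0.045).

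CCND1, a D cyclin often raised in tumours, had 0.16, 0.21 and −0.30 on the cocoa arrays and 0.035, −0.035 and −0.14 on the controls. Cocoa array 3 stood below every control while the other cocoa arrays stood above, and the log2 difference of 0.070 (interval −0.21 to 0.36, adjusted p = 0.794) changed sign without cocoa array 2 (−0.022) and with array weights (−0.0058). CCND2 and CCND3, the other D cyclins, had log2 differences of −0.023 (interval −0.17 to 0.13) and 0.11 (interval −0.035 to 0.26).

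Of the 6 other cyclins (CCNF, CCNG1, CCNG2, CCNI, CCNJ and CCNY) 1 rose, 1 fell and 4 did not pass (33.3% changed, against 13.5% of all genes). CCNG2 encodes cyclin G2, an unconventional cyclin known from cells that have left the cycle. It had 0.41, 0.47 and 0.48 on the cocoa arrays and −0.38, −0.46 and −0.37 on the controls. All cocoa values stood above all control values, with little spread within either group. CCNG2 rose 1.81-fold (log2 difference 0.85, SE 0.064, adjusted p = 7.87e-05), and its adjusted p was 0.000326 to 0.000885 in the 6 fits that left out 1 array.

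CCNF, an F-box protein that marks other proteins for degradation in S phase and G2 and is not known to activate a CDK, had −0.18, −0.35 and −0.42 on the cocoa arrays and 0.31, 0.32 and 0.17 on the controls. It was lower on each cocoa array than on any control. It fell by 0.59 (SE 0.082, adjusted p = 0.00207), and in the fits without 1 array the adjusted p ran from 0.00199 to 0.0148. CCNG1, CCNI, CCNJ and CCNY did not pass, with log2 differences from −0.17 for CCNJ to 0.10 for CCNI. CCNI is the direct neighbour of CCNG2 among protein-coding genes in the RefSeq annotation, with 0 such genes between them, and its log2 difference was 0.10 (interval −0.033 to 0.24).

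**Figure D2:**
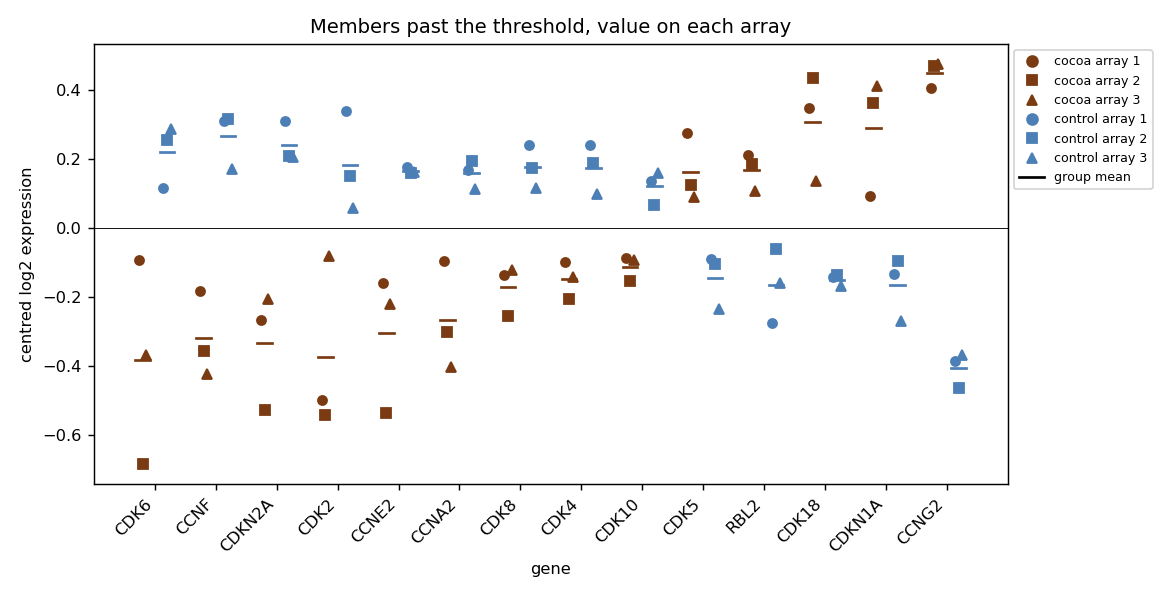
Centred log2 expression of the 14 genes past the threshold on each array, ordered from the largest decrease to the largest increase. Symbols mark the array number, brown the cocoa and blue the control arrays, and horizontal lines the group means; the 2 colours do not overlap for any gene, and for CDK6 the cocoa arrays run from −0.68 to −0.092.

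Upstream sequences of 2 cyclins that fell, of 1 mitotic cyclin that did not pass and of the cyclin that rose most are printed here so that the letters known as binding words of cell cycle promoters can be seen beside these values. They come from RefSeq (GRCh38.p14), run 5′ to 3′ on the gene's strand, and end before the annotated start of transcription. Capitals mark the words CCAAT (the CCAAT box) and TTTGAA (the cell cycle homology region), on either strand. The stretches are chr16:2429331-2429440 (plus strand, positions −116 to −7) for CCNF, chr4:121823884-121823983 (minus strand, −100 to −1) for CCNA2, chr15:59105016-59105125 (plus strand, −130 to −21) for CCNB2, and chr4:77157107-77157206 (plus strand, −100 to −1) for CCNG2.
CCNF: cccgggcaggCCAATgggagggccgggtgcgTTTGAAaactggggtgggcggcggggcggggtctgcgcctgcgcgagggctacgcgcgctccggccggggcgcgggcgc
CCNA2: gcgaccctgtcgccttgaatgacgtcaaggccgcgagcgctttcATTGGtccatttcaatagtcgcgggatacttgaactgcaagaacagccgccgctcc
CCNB2: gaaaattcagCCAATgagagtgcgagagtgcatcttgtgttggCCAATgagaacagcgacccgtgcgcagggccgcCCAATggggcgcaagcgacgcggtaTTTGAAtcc
CCNG2: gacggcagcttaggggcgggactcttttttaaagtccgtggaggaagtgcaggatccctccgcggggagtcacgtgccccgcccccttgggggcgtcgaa

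The window searched runs from 250 bases before to 50 bases after the start, and 46 of the 51 genes matched the table, with 66 windows. CCND1, CCND2, CCNE2, CDK2 and CDKN1C were not matched and not searched. CCAAT was found in 27 of these 66 windows (40.9%), against 34.6% of all 35116 windows, and TTTGAA in 9 (13.6%), against 15.2%. Among windows of genes that fell, CCAAT lay in 2 of 9 (22.2%), those of CCNF and CCNA2 printed above, and TTTGAA in 1 (11.1%). Among windows of genes that did not pass, CCAAT lay in 23 of 51 (45.1%) and TTTGAA in 7 (13.7%). The printed stretches are therefore not typical of the genes that fell. The E2F words TTTCCCGC, TTTCGCGC, TTTGCCGC and TTTGGCGC were found in 5 windows (7.58%), against 3.31%, and the FOXO word GTAAACA in 2 (3.03%), against 3.42%. All words were read on both strands, and none contains another. CCNF, which fell, and CCNB2, which did not pass, both hold 4 CCAAT words and 1 TTTGAA word in their windows. The window of CCNG2 holds none of the 7 words. The E2F words lie in windows of CDK1, CDK10, CDK19 and RBL1, of which CDK10 fell and the others did not pass. Several windows were searched for 16 genes, and where these overlap a site can be counted more than once. This holds for the E2F word of CDK1. A match is a description of the letters and not a binding site.

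Of the 12 cell cycle and related CDKs 4 fell, 2 rose and 6 did not pass (50% changed, against 13.5% of all genes). CDK6, a partner of D cyclins, had −0.092, −0.68 and −0.37 on the cocoa arrays and 0.12, 0.26 and 0.29 on the controls. Cocoa array 2 was far below the other cocoa arrays, and the groups did not overlap. CDK6 fell by 0.60 (SE 0.13, adjusted p = 0.0164). With the median of its probe sets in place of their mean it fell by 0.56 (adjusted p = 0.00958), which is less than 1.5-fold. When control array 2 was left out the adjusted p was 0.0639, and when control array 3 was left out it was 0.0566. CDK4, the other partner of D cyclins, had −0.098, −0.20 and −0.14 with cocoa and 0.24, 0.19 and 0.098 in controls. Each group was tight and the groups did not overlap. CDK4 fell by 0.32 (SE 0.068, adjusted p = 0.0136), with 0.0582 without control array 1 and 0.0638 without control array 2.

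CDK2, the kinase of the E and A cyclins, had −0.50, −0.54 and −0.081 on the cocoa arrays and 0.34, 0.15 and 0.060 on the controls. The third cocoa array lay close to the third control array, and the others lay well apart. CDK2 fell by 0.56 (SE 0.13, adjusted p = 0.0187), and its adjusted p was 0.0655 without cocoa array 2, 0.0724 without control array 1 and 0.0589 without control array 2. CDK1, the kinase of mitosis, had 0.0043, −0.059 and −0.13 with cocoa and 0.13, −0.022 and 0.15 in controls. The groups overlap, and the log2 difference was −0.15 (interval −0.31 to 0.018, adjusted p = 0.241).

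CDK10, which works with cyclin M, had −0.087, −0.15 and −0.093 with cocoa and 0.14, 0.069 and 0.16 in controls. It fell by 0.23 (SE 0.063, adjusted p = 0.0392), the smallest change of the 14, and with any 1 array left out it did not pass (adjusted p between 0.0505 and 0.121). The 2 CDKs that rose are not known as drivers of the cycle. CDK18, a relative of CDK16 and CDK17 in the PCTAIRE group, had 0.35, 0.43 and 0.14 on the cocoa arrays and −0.14, −0.14 and −0.17 on the controls. It rose by 0.46 (SE 0.083, adjusted p = 0.00751), and its call was kept in all 6 fits without 1 array. CDK5, best known from neurons, had 0.28, 0.13 and 0.090 with cocoa and −0.090, −0.10 and −0.23 in controls. It rose by 0.31 (SE 0.076, adjusted p = 0.0273), with an adjusted p up to 0.0969 without 1 array and a call in 1 of these 6 fits.

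CDK16 and CDK17, the relatives of CDK18, had log2 differences of −0.14 (interval −0.35 to 0.077) and 0.012 (interval −0.19 to 0.21). CDK14, CDK15 and CDK20 had log2 differences of 0.023, 0.025 and 0.029. The arrays of these 5 genes overlap between the groups.

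Among the 6 transcription CDKs 1 fell and 5 did not pass (16.7% changed, against 13.5% of all genes). CDK8, the kinase of the Mediator complex, had −0.14, −0.25 and −0.12 on the cocoa arrays and 0.24, 0.17 and 0.12 on the controls. The groups did not overlap. CDK8 fell by 0.35 (SE 0.069, adjusted p = 0.0109), and in the fits without 1 array the adjusted p ran from 0.0181 to 0.0496. CDK19, its close relative in the same complex, had a log2 difference of 0.10 (interval −0.064 to 0.26). CDK7, the kinase of TFIIH, and CDK9, the kinase of the elongation factor P-TEFb, had log2 differences of −0.031 (interval −0.23 to 0.16) and −0.034 (interval −0.21 to 0.14).

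Of the 7 transcription cyclins 0 passed in limma, against 13.5% of all genes, and 3 had an unadjusted p below 0.05, against 27.1% of all genes. CCNL1, a cyclin of splicing, had 0.050, −0.48 and −0.23 on the cocoa arrays and 0.025, 0.29 and 0.45 on the controls. Its first cocoa and first control array were alike while the others lay far apart, and the log2 difference was −0.47 (SE 0.14, adjusted p = 0.0572). CCNL2, its relative, had −0.22 (SE 0.092, adjusted p = 0.161). CCNC, the partner of CDK8, had a log2 difference of 0.0072 (interval −0.15 to 0.17).

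Of the 7 CDK inhibitors 1 rose, 1 fell and 5 did not pass (28.6% changed, against 13.5% of all genes). CDKN1A, which encodes p21, had 0.094, 0.36 and 0.41 on the cocoa arrays and −0.13, −0.094 and −0.27 on the controls. Cocoa array 1 was lower than the other cocoa arrays and still above every control. CDKN1A rose 1.37-fold (log2 difference 0.46, SE 0.095, adjusted p = 0.0130), and without control array 3 the adjusted p was 0.0504. CDKN1B, which encodes p27, had −0.052, 0.23 and 0.25 with cocoa and −0.046, −0.084 and 0.046 in controls. Cocoa array 1 fell among the controls and the other cocoa arrays stood above them. The log2 difference of CDKN1B was 0.17 (SE 0.090, adjusted p = 0.277). It passed in 1 of the 6 fits without 1 array, that without cocoa array 1 (0.26, adjusted p = 0.0430). Without cocoa array 3 the log2 difference was 0.12 (adjusted p = 0.545). With the signal of the 18S ribosomal RNA control probe sets as a covariate it was 0.068 (adjusted p = 0.749).

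CDKN2A encodes the INK4 inhibitor p16 and, from another start and reading frame, ARF. It had −0.27, −0.53 and −0.20 on the cocoa arrays and 0.31, 0.21 and 0.21 on the controls. The groups did not overlap, with cocoa array 2 the lowest. CDKN2A fell by 0.58 (SE 0.091, adjusted p = 0.00382), and in the fits without 1 array the adjusted p ran from 0.00571 to 0.0198. Which of its transcripts changed is not given by these values. CDKN2B, its direct neighbour with 0 protein-coding genes between them, encodes p15 and had 0.020, −0.18 and −0.35 with cocoa and 0.18, 0.0050 and 0.11 in controls. The groups overlap, and its log2 difference of −0.27 (SE 0.097) did not pass (adjusted p = 0.108). CDKN1C, CDKN2D and CDKN3, a phosphatase of CDKs, had log2 differences of 0.12, −0.073 and −0.088.

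Of the 3 pocket proteins 1 rose and 2 did not pass (33.3% changed, against 13.5% of all genes). RBL2, or p130, the pocket protein of resting cells, had 0.21, 0.19 and 0.11 on the cocoa arrays and −0.28, −0.059 and −0.16 on the controls. It rose by 0.33 (SE 0.075, adjusted p = 0.0183), and the adjusted p was 0.0539 without cocoa array 2, 0.0691 without control array 1 and 0.0539 without control array 3. RB1 had −0.022, −0.42 and 0.014 with cocoa and 0.087, 0.087 and 0.022 in controls, with cocoa array 2 far below the rest. Its log2 difference was −0.21 (SE 0.11, adjusted p = 0.270), and without that array it was −0.069. RBL1, or p107, had −0.067, −0.28 and −0.11 with cocoa and −0.061, 0.052 and 0.16 in controls, with a log2 difference of −0.20 (SE 0.084, adjusted p = 0.155). All cocoa arrays lay below all controls for RB1 and RBL1 and above them for RBL2, and 32.5% of all genes do not overlap in 1 direction or the other. The gaps were narrow for RB1 (highest cocoa 0.014, lowest control 0.022) and RBL1 (−0.067 and −0.061). The 4 probe sets of RBL1 had log2 differences from −0.68 to 0.075, with 0 called. Those of RBL2 had 0.47, which was called, and 0.20, which was not.

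Probe sets gave a second view of the same arrays. Of 140 probe sets 10 rose and 16 fell when adjusted over all probe sets, 18.6% in all, against 7.98% of all probe sets. They belong to 17 genes, and 0 genes had probe sets called in both directions. Several probe sets were available for 40 genes, and in 21 of these they all pointed one way, among them all 10 such genes of the 14 that changed. CDK6 had 7 probe sets, all lower, with log2 differences from −0.96 to −0.23 and 4 of them called. The lowest (−0.96, SE 0.50) did not pass. It read 0.15, −2.25 and −0.55 on the cocoa arrays 1, 2 and 3, so it weighs on the mean of CDK6 through cocoa array 2. CCNG2 had 5, all higher, from 0.27 to 1.14, with 4 called. For CDKN2A, 2 of 3 were called (−0.86 and −0.72), and the other read −0.14 (SE 0.11). For CDK2, 1 of 3 was called, with differences from −0.84 to −0.30.

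CDK5 and CDK10 passed as genes but had no probe set past the threshold over probe sets. CCNE1, CCNL1, CDK12, CDK19 and CDKN1C did not pass as genes but had called probe sets. CDKN1C, which encodes p57, had 5 probe sets, of which 1 rose by 0.61 (SE 0.082) and the others lay between −0.13 and 0.054. CDK12, a kinase of transcription elongation, had 8, of which 1 rose by 0.49 (SE 0.099) and another had a log2 difference of −0.35 (SE 0.10) that did not pass. For CCNL1, 2 of 4 probe sets fell, and all 4 lay between −0.55 and −0.40. The 2 probe sets of RB1 had log2 differences of 0.045 and −0.46, neither past the threshold. Of the 14 changed genes CDK4, CDK5, CDK18 and CDKN1A rest on 1 probe set whose suffix _s_at marks possible matches to several transcripts.

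**Figure D3:**
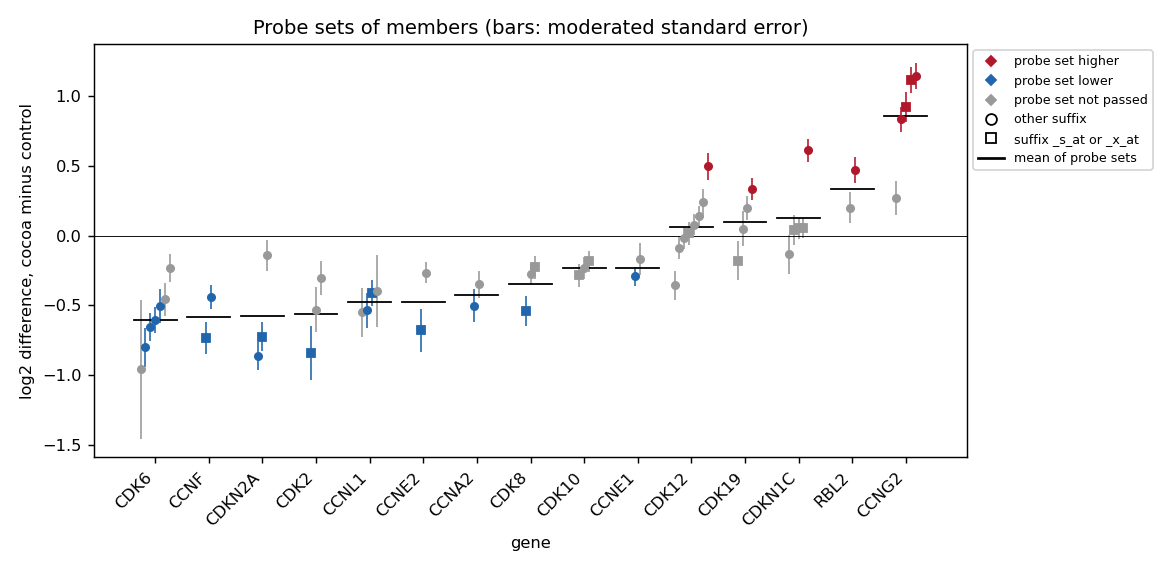
Log2 difference, cocoa minus control, of each probe set of the 15 genes that have several probe sets and are called as a gene or in a probe set. Bars are moderated standard errors, black lines the mean over a gene's probe sets, and colours mark probe sets past the threshold; those of CDK6 lie below 0 and those of CCNG2 above 0, while those of CDK12 and CDKN1C lie on both sides.

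Other genes of the pathway, came from a list of E2F factors and other transcription factors of the cycle, subunits of the MuvB complex, CDK phosphatases and kinases, ubiquitin ligase subunits, partners of CDKs and regulators of the transcription CDKs. Of 35 measured (36 listed) 14 fell, 1 rose and 20 did not pass. The share that changed was 42.9%, against 13.5% of all genes, and the share that fell 40.0%, against 6.12%. The list was chosen with earlier results of these data known, so these shares describe the listed genes and do not test the pathway. The median log2 difference was −0.19, against −0.012 over all genes. SKP2, the F-box protein that targets p27, had the largest decrease (log2 difference −0.92, SE 0.21), with −0.17, −1.13 and −0.42 on the cocoa arrays and 0.41, 0.45 and 0.17 on the controls. MYBL2, a transcription factor of S phase, fell by 0.55 (SE 0.094), and TFDP1, the dimer partner of E2F factors, fell by 0.55 (SE 0.072). CDC25A, a phosphatase that activates CDK2, and E2F7, a repressor of the E2F family, each fell by 0.48 (SE 0.092 and 0.085). CDC20 and FBXO5, which activate and inhibit the anaphase-promoting complex, fell by 0.39 (SE 0.075) and 0.37 (SE 0.078). TFDP2, the second dimer partner, rose by 0.34 (SE 0.072). For E2F1, the best known member of its family, the log2 difference was −0.27 (SE 0.082, adjusted p = 0.0604).

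The counts changed when single arrays were left out or when 1 of 2 array signals was added as a covariate. Fits with fewer arrays or with a covariate are less precise, so a lost call need not mean a smaller difference. For CDK5 the SE was 0.076 without and 0.091 with the 18S covariate. Both signals also differed in part along with the groups, so their share and that of cocoa cannot be fully told apart. Without control array 2, 8 of the 51 genes changed (4 higher and 4 lower), and 1315 of all 19775 genes. Without control array 3, 9 of the 51 changed (2 higher and 7 lower), and 1826 of all genes. Of the 14 genes, 6 (CCNE2, CCNF, CCNG2, CDK8, CDK18 and CDKN2A) kept their call in each fit without 1 array. The 18S ribosomal RNA control probe sets had mean centred log2 signals of −0.51, 3.31 and 1.40 on the cocoa arrays 1, 2 and 3 and of −1.12, 0.51 and −0.53 on the controls. The 9 genes that fell had a mean of −0.18, −0.40 and −0.23 on the same cocoa arrays and of 0.23, 0.19 and 0.15 on the controls, so that the array with the highest 18S signal also had the lowest mean. The 5 genes that rose had 0.27, 0.32 and 0.24 with cocoa and −0.20, −0.17 and −0.24 in controls.

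When the 18S signal was added as a covariate, 3 of the 51 genes and 1103 of all 19775 genes changed. The share of the set that changed was then close to that of all genes. The 3 were CCNF (log2 difference −0.52, adjusted p = 0.0218), CCNG2 (0.85, adjusted p = 0.00120) and CDKN2A (−0.46, adjusted p = 0.0306). The other 11 did not pass, with adjusted p from 0.0576 to 0.191. Among these the log2 difference with the covariate was −0.52 for CDK2 (−0.56 without it), 0.42 for CDK18 (0.46), 0.31 for RBL2 (0.33), 0.36 for CDK5 (0.31), −0.29 for CDK8 (−0.35), −0.28 for CDK4 (−0.32) and −0.19 for CDK10 (−0.23). It was −0.39 for CDK6 (−0.60), −0.32 for CCNE2 (−0.47), −0.35 for CCNA2 (−0.43) and 0.34 for CDKN1A (0.46). The 5′ minus 3′ signal of the actin and GAPDH control probe sets was 0.032, −0.26 and −0.052 on the cocoa arrays. It lay between 0.0090 and 0.033 on the controls. With this signal as a covariate 6 of the 51 genes (CCNE2, CCNF, CCNG2, CDK6, CDK18 and CDKN2A) and 1411 of all 19775 genes changed. All 14 genes kept the sign of their difference with either covariate.

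**Figure D4:**
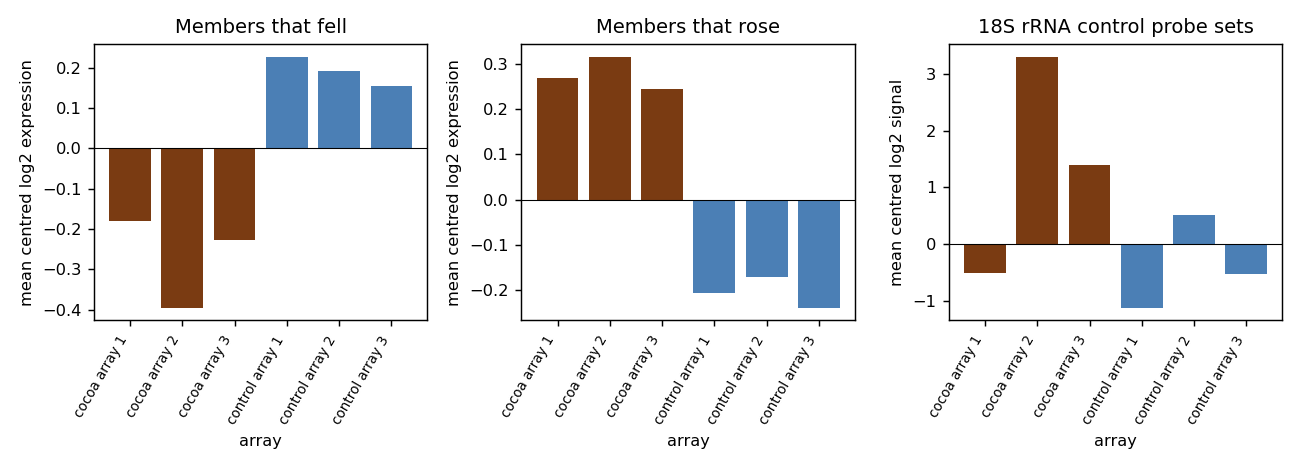
Mean centred log2 value on each array of the 9 genes that fell, of the 5 genes that rose and of the 18S ribosomal RNA control probe sets, with cocoa arrays in brown and control arrays in blue. Cocoa array 2 has the highest 18S signal (3.31) and the lowest mean of the genes that fell (−0.40), and cocoa array 1 has an 18S signal of −0.51, within the range of the controls.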

How the data were processed

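RNA of 6 HT29 cultures was hybridised to Affymetrix U133 Plus 2.0 arrays, 1 per culture. Per the submitters' processing notes the authors made the log2 values with RMA (robust multi-array average), and GeneSpring GX is named in the series text; neither names a version, an annotation or a filter. The deposited table of 54675 probe sets is centred per probe set (largest absolute median 5e-07), so signal over background is unknown and no filter on dim probe sets could be set; the number of arrays limits the precision. That the base is 2 follows from RMA.

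Probe sets were named by GEO's platform annotation. Of 54613 without the 62 controls, 1801 had several symbols and 11721 none and were left out of gene values; all 51 members matched RefSeq by gene identifier. Probe sets of a gene were averaged. Cocoa minus control was fitted over all 19775 genes with limma 3.58.1 (lmFit, eBayes) in R 4.3.3, with Benjamini-Hochberg adjustment over all genes and a threshold of 0.05; probe sets were fitted likewise. SE is the moderated standard error. The steps were tested on simulated data, where 20% of log2 changes of 0.3, 72% of 0.5 and 98% of 1 were recovered and 9 of 154 calls were false. A gene that did not pass may therefore still differ by 0.3 to 0.5.

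The members, lists and tests were chosen with earlier results of these data known. Described singly are all changed members and 12 fixed ones (CCND1, CCNE1, CCNA2, CCNB1, CDK1, CDK2, CDK4, CDK6, CDKN1A, CDKN1B, CDKN2A and RB1), with up to 8 changed genes of the pathway list; other members and E2F1 were added after their values were seen. No 2 arrays were copies (differences between any 2 had an SD of 0.175 or more). Promoter words were searched as letters. Python 3.11.15 was used for tables and figures.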

Additional observations from a re-analysis of the deposited data

How the results depend on the processing

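The count of changed members (14, with 5 higher and 9 lower) and of all changed genes (2666) stayed within 1.5 times under a robust prior, array weights, quantile normalisation, centring of arrays, the median of probe sets, the probe set with the lowest p and the replicate block (13 members, 1947 genes, CDK10 lost at adjusted p = 0.0762). Same-numbered arrays did not deviate together (correlations of deviations −0.12, −0.0089 and −0.0031 over genes). No cocoa array correlated best with its own number. With 3 arrays per group this cannot show whether same-numbered cultures shared a day, which no label gives. With the 18S covariate 3 members (1 higher and 2 lower) and 1103 genes changed, and with the 5′ to 3′ covariate 6 members (2 higher and 4 lower) and 1411 genes; the cause was not tested. Without probe sets of the suffixes _s_at and _x_at, which leaves 42 members, 9 changed (2 higher). At 1.5-fold or more, 3 members (1 higher and 2 lower) and 446 genes remained by construction. Without 1 array, 8 to 15 members changed (2 to 5 higher and 4 to 10 lower) and 1315 to 2881 genes, the lowest without control array 2. The median difference of the members, −0.073, was −0.049 with the median of probe sets and −0.056 to −0.10 without 1 array. The 14 changed members kept their sign in 220 of 220 alternative values, and 47 of these did not pass. Signs turned in 4 values of members that had not passed: CCND1 with array weights (−0.0058) and without cocoa array 2 (−0.022, in a range of −0.022 to 0.23 without 1 array), and, without the suffixed probe sets, CCNB1 (0.053) and RB1 (0.045). Groups of 3 arrays were not tested for outlying arrays.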
